A study of Homo sapiens with 6 samples.

Results

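The genes described here are TGFB1, TGFB2, INHBA, INHBB, TGFBR1, TGFBR2, TGFBR3, SMAD3, SKIL and TGFBI, which encode ligands, receptors, a signal transducer, a feedback regulator and a matrix protein of the TGF-beta and activin pathway. They were chosen by symbol, and all 10 were found among the 23228 genes of the count tables. The RNA of RL95-2, a cell line established from a human endometrial carcinoma, was sequenced in 3 Control and 3 ADP-CM libraries. Control cells were kept for 24 h in equal parts of serum-free RPMI and DMEM, and ADP-CM cells for the same time in serum-free RPMI mixed with an equal part of ADP-CM, the DMEM in which mature adipocytes from human visceral fat had been cultured. All libraries come from 1 cell line, and how many adipocyte preparations stood behind the medium is not given in the sources used here. Nothing in the labels says that the libraries of a group came from separate cultures, so p-values measure the spread between these libraries, which may be technical.

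The libraries held between 16262614 and 18363033 reads counted on genes. Epithelial markers were abundant, with a summed level of 5608 to 5762 CPM (reads of a gene scaled to a common library total, after TMM normalization) over 8 genes in Control and 4916 to 5015 in ADP-CM. Most of this sum was KRT7, KRT8 and KRT18, while MUC1 had only 0.953 CPM in Control and 2.31 in ADP-CM. At an adjusted p under 0.01 by edgeR, CDH1, KRT8, KRT18 and KRT19 were lower in ADP-CM and PAX8 and MUC1 higher. EPCAM and KRT7 did not pass. Of 12 adipocyte markers, 8 had at most 3 reads in every library, and ADIPOQ and LEP were at 0. The 12 summed to 5.98 to 7.31 CPM in Control and 4.53 to 5.49 in ADP-CM, mostly LIPE. The 9 stromal markers summed to 61.5 to 68.5 CPM in Control and 78.3 to 79.3 in ADP-CM, nearly all of it COL1A1, while COL1A2, DCN, PDGFRA, POSTN and THY1 had at most 3 reads in every library. The 8 leukocyte markers summed to 7.08 to 8.35 and 9.92 to 12.1 CPM, mostly CD68, with PTPRC at no more than 3 reads, and the 6 endothelial markers to 60.9 to 67.1 and 54.6 to 62.2 CPM, mostly CDH5, with PECAM1 and KDR at no more than 3 reads. By the same edgeR limit LIPE was lower in ADP-CM and COL1A1 and CD68 higher, while COL3A1 and CDH5 did not pass. All ADP-CM libraries were deeper than all Control libraries, and the part of this depth and of these marker levels in the results was not tested.

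TGF-beta ligands and activins are secreted dimers of one large family. Activin A is built from the subunit encoded by INHBA and activin B from that encoded by INHBB. A ligand joins a type II receptor to a type I receptor, which phosphorylates SMAD2 and SMAD3, and these enter the nucleus with SMAD4. SKIL and SMAD7 are feedback inhibitors that the pathway induces. In the endometrium, activins and TGF-beta are known for their part in tissue remodelling and decidualization.

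INHBA and INHBB moved in opposite directions in these data and SKIL is a classical SMAD target, so the 250 bases before the start of these 3 genes are shown from RefSeq, build GRCh38.p14, each read 5′ to 3′ on the strand of its gene. All 10 genes had an entry, and these 3 had a single start there. Capitals mark the SMAD box letters CAGAC and the GC box letters GGGCGG, each searched on both strands, and neighbouring matches can share letters.
INHBA, chr7:41703091-41703340 (- strand): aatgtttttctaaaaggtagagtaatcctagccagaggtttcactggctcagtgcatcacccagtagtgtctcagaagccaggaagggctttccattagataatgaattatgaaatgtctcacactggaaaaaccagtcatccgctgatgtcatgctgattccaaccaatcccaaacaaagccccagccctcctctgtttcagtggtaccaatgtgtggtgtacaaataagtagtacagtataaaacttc
INHBB, chr2:120345886-120346135 (+ strand): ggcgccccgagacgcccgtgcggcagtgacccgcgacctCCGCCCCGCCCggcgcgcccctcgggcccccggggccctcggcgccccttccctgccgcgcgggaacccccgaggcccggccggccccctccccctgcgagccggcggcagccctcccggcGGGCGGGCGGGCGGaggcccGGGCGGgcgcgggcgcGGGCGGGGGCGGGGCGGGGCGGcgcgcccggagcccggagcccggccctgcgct
SKIL, chr3:170357465-170357714 (+ strand): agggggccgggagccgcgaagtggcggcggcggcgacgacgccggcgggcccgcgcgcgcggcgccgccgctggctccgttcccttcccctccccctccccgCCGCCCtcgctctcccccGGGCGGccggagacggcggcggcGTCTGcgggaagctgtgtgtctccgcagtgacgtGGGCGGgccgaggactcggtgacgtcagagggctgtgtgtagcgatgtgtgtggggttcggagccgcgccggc
The INHBA window held 42.8% G and C and no match to either motif. The INHBB window held 89.6% G and C, with 10 matches to the GC box and none to the SMAD box. The SKIL window held 1 match to the SMAD box, 107 bases before the start, and 3 to the GC box. Over the 35116 windows of this length in the table, 38.0% held the SMAD box letters and 42.6% the GC box letters. The AP-1 letters TGAGTCA, searched on both strands and found in 4.20% of windows, were in none of the 3. These are matches of letters and were not tested for binding.

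The comparison of ADP-CM with Control asked whether adipocyte-conditioned medium changed the expression of these genes. INHBB, TGFBR2, SMAD3, INHBA and SKIL differed. INHBB, which encodes the activin B subunit, was 1.55-fold lower in ADP-CM, and TGFBR2, which encodes the type II TGF-beta receptor, was 1.66-fold higher. SMAD3 rose 1.23-fold, INHBA 1.22-fold and SKIL 1.12-fold. TGFB1, TGFBR1, TGFBR3 and TGFBI did not pass the test, and TGFB2 had too few reads to be tested. A gene was called raised or lowered when its p-value from the edgeR quasi-likelihood test, adjusted by Benjamini-Hochberg over all 12663 tested genes, was under 0.01. Thus 4 of the 9 tested genes were raised and 1 lowered, where 13.5% of all tested genes were raised and 13.0% lowered. The genes were chosen with earlier results of these data known, so an excess over these shares is no test of the pathway. With a fold change over 1.5 as well, the limit that the study set, TGFBR2 and INHBB remained, where 1.14% of tested genes passed in each direction. The median log2 fold change of the 9 genes was 0.28, against -0.00 over all tested genes. The libraries are whole cultures, so a change in the share of cells that express a gene and a change in the RNA per cell cannot be told apart.

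**Figure D1:**
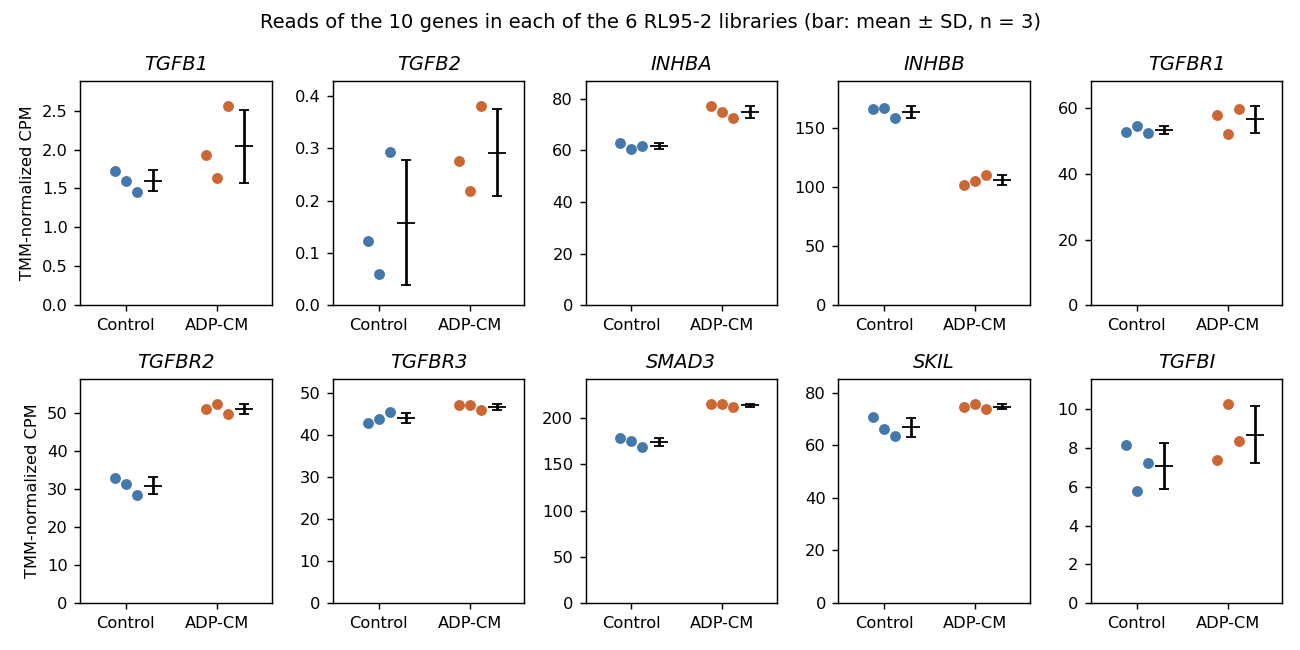
TMM-normalized CPM (vertical axes, from 0) of each of the 10 genes in the 3 Control and 3 ADP-CM libraries, with one point per library and the mean ± SD beside each group. All ADP-CM points lie above all Control points for INHBA, TGFBR2, TGFBR3, SMAD3 and SKIL and below them for INHBB. Over all tested genes, the ADP-CM libraries lay above the Control libraries without overlap for 22.7% and below them for 22.8%.

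Among the ligands, INHBB (chromosome 2, 121103712 to 121109379 on GRCh37) had 2694, 2820 and 2702 reads in the Control libraries, replicates 1 to 3 in that order as for each gene here, and 1843, 1934 and 2028 reads in the ADP-CM libraries. The highest ADP-CM library lay well below the lowest Control library, although the ADP-CM libraries were the deeper ones. Its level fell from 164 ± 4.94 to 106 ± 4.24 CPM (SD of n = 3 per group). On the log2 scale the change was -0.63 (SE 0.032, adjusted p = 5.46e-26 by edgeR), at rank 198 of the 12663 tested genes from the largest fall.

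INHBA (chromosome 7, 41706766 to 41745432) had 1020, 1020 and 1054 reads in Control and 1398, 1373 and 1338 in ADP-CM. The groups did not overlap at the level of CPM either, with 60.4 to 62.9 in Control and 72.7 to 77.2 in ADP-CM. INHBA changed by 0.28 on the log2 scale (SE 0.039, adjusted p = 1.65e-08 by edgeR). Antisense exons of INHBA-AS1 lie opposite 2.99% of its exonic bases, and the strand setting of the counting is not given in the sources used here.

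Because INHBA and INHBB went in opposite directions, their balance within each library was set out, a comparison chosen after the values were seen. Per kilobase of exon, INHBA stood at 0.147, 0.140 and 0.151 of the level of INHBB in the Control libraries and at 0.294, 0.275 and 0.255 in the ADP-CM libraries. The ratio thus rose from 0.146 ± 0.00553 to 0.275 ± 0.0191 (SD of n = 3 per group), and INHBB remained the more abundant transcript in every library. The summed RPKM (reads per kilobase of exon, scaled to the total of reads on genes) of both subunits fell from 58.4 ± 1.44 to 42.1 ± 1.09 (SD of n = 3 per group). Both differences had p = 0.1 in a two-sided exact permutation test, the smallest value that 3 libraries against 3 allow. The separation of the libraries was already seen when the comparison was chosen, so these p-values add no support. The sum was mostly INHBB and repeated its fall. The size of the ratio depends on the exon lengths taken, which scale every library alike. With the length of the longest annotated transcript, INHBA and INHBB stood at 10.2 and 51.0 RPKM in Control and at 12.4 and 33.0 in ADP-CM.

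**Figure D2:**
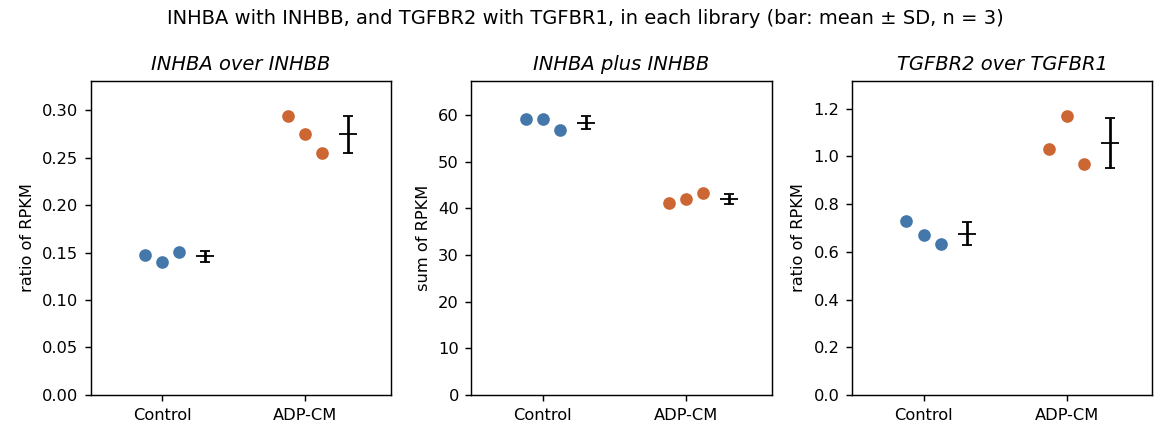
Ratio of INHBA to INHBB, sum of INHBA and INHBB, and ratio of TGFBR2 to TGFBR1, all in RPKM (vertical axes, from 0), with one point per library and the mean ± SD of 3 libraries. In each panel the Control and ADP-CM points are apart, with a mean ratio of INHBA to INHBB of 0.146 in Control and 0.275 in ADP-CM.

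The TGF-beta ligands were scarce. TGFB1 (chromosome 19, 41807492 to 41859827) had 28, 27 and 25 reads in Control and 35, 30 and 47 in ADP-CM. The groups overlapped in CPM, where ADP-CM replicate 2 lay within the Control range, and ADP-CM replicate 3 was the highest library. For TGFB1 the log2 ratio was 0.36 (95% interval -0.09 to 0.80, adjusted p = 0.222 by edgeR), and it was 0.16 without ADP-CM replicate 3. Exons of HNRNPUL1 lie opposite 6.59% of its exonic bases. TGFB2 (chromosome 1, 218518678 to 218617961) had 2, 1 and 5 reads in Control and 5, 4 and 7 in ADP-CM, below edgeR's filter on low counts, and a difference was not detectable at this depth. In GENCODE, exons of TGFB2-OT1 cover 22.7% of its exonic bases on the same strand and exons of TGFB2-AS1 lie opposite 11.6%, and neither symbol has a row in the count tables.

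Among the receptors, TGFBR2 (chromosome 3, 30648093 to 30735634) had 533, 531 and 485 reads in Control and 925, 962 and 914 in ADP-CM. All ADP-CM libraries lay far above all Control libraries, and its level rose from 30.9 ± 2.30 to 51.1 ± 1.38 CPM (SD of n = 3 per group). On the log2 scale the change was 0.73 (SE 0.051, adjusted p = 6.6e-19 by edgeR), at rank 132 of 12663 from the largest rise. Over the 12 other fits of normalization, filter, tool, block and left-out library it ran from 0.67 to 0.77.

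TGFBR1 (chromosome 9, 101866320 to 101916474), the type I receptor that TGFBR2 recruits, had 854, 923 and 897 reads in Control and 1048, 956 and 1102 in ADP-CM. In CPM the groups overlapped, at 52.5 to 54.7 and 52.1 to 59.9, with ADP-CM replicate 2 the lowest of all libraries. The log2 ratio of TGFBR1 was 0.09 (95% interval 0.00 to 0.18, adjusted p = 0.116 by edgeR). TGFBR3 (chromosome 1, 92145900 to 92371892), the coreceptor betaglycan that presents TGF-beta and binds inhibin, had 694, 739 and 774 reads in Control and 853, 862 and 842 in ADP-CM. In CPM the groups were apart by a narrow gap, with 45.3 in the highest Control and 45.8 in the lowest ADP-CM library. For TGFBR3 the log2 ratio was 0.09 (95% interval -0.01 to 0.18, adjusted p = 0.15 by edgeR). Such a gap is common here, since the ADP-CM libraries lay above the Control libraries without overlap for 22.7% of all tested genes and below them for 22.8%.

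The balance of TGFBR2 and TGFBR1 per kilobase of exon, also chosen after the values were seen, moved with TGFBR2. TGFBR2 stood at 0.728, 0.671 and 0.631 of the level of TGFBR1 in Control and at 1.03, 1.17 and 0.967 in ADP-CM. The ratio rose from 0.677 ± 0.0489 to 1.06 ± 0.106 (SD of n = 3 per group), with p = 0.1 in a two-sided exact permutation test, again the smallest possible. This p-value too followed from values already seen and adds no support. The size of this ratio also depends on the exon lengths taken.

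SMAD3 (chromosome 15, 67356101 to 67487511), which carries the signal of TGF-beta and activin receptors to the nucleus, had 2888, 2955 and 2882 reads in Control and 3891, 3940 and 3903 in ADP-CM. The 3 ADP-CM libraries lay close together at 212 to 215 CPM, above the Control libraries at 169 to 178. SMAD3 changed by 0.30 on the log2 scale (SE 0.027, adjusted p = 1.12e-14 by edgeR). Its partners did not pass the test, with 102 ± 3.26 and 101 ± 2.91 CPM for SMAD2 and 91.1 ± 2.36 and 92.9 ± 2.01 CPM for SMAD4 in Control and ADP-CM (SD of n = 3 per group).

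SKIL (chromosome 3, 170075130 to 170114623), the corepressor SnoN that binds SMAD complexes, had 1149, 1116 and 1085 reads in Control and 1350, 1390 and 1355 in ADP-CM. The groups did not overlap in CPM, with 63.4 to 70.8 in Control and 73.7 to 75.8 in ADP-CM. Its rise was the smallest of the called genes, 0.16 on the log2 scale (SE 0.039, adjusted p = 0.00066 by edgeR). Without Control replicate 3 the log2 fold change was 0.13 and the call was lost, at an adjusted p-value of 0.0217 by edgeR. The homologous corepressor SKI had 93.4 ± 1.49 and 93.2 ± 1.06 CPM in Control and ADP-CM libraries (SD of n = 3 per group).

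TGFBI (chromosome 5, 135364677 to 135399507), a secreted matrix protein named for its induction by TGF-beta, had 132, 98 and 124 reads in Control and 134, 188 and 154 in ADP-CM. The groups overlapped, and the 3 libraries of each group spread widely, with 7.06 ± 1.18 and 8.68 ± 1.45 CPM (SD of n = 3 per group). For TGFBI the log2 ratio was 0.30 (SE 0.12), and the adjusted p of 0.0409 by edgeR missed the limit of 0.01. SMAD3 had the same log2 ratio with an SE of 0.027, at far more reads.

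Levels of different genes were compared per kilobase of exon. In Control the order from the highest RPKM was INHBB (51.0 ± 1.46), SMAD3 (17.3 ± 0.458), SKIL (8.21 ± 0.450), INHBA (7.43 ± 0.149), TGFBR1 (6.65 ± 0.147), TGFBR3 (5.11 ± 0.153), TGFBR2 (4.50 ± 0.329), TGFBI (0.914 ± 0.152), TGFB1 (0.488 ± 0.0397) and TGFB2 (0.0261 ± 0.0199), each as mean and SD of 3 libraries. No neighbours in that order overlapped in their library ranges. In ADP-CM, TGFBR2 (7.46 ± 0.196 RPKM) moved ahead of TGFBR1 (7.09 ± 0.510) and TGFBR3 (5.44 ± 0.0816), and the ranges of TGFBR2 and TGFBR1 overlapped, as did those of SKIL (9.20 ± 0.125) and INHBA (9.05 ± 0.263). INHBB was still first at 33.0 ± 1.35 RPKM, with SMAD3 second at 21.4 ± 0.135. The activin subunit transcripts were thus far more abundant than the TGF-beta ligand transcripts in both media. The order depends on the exon length taken. With the length of the longest annotated transcript, INHBA (10.2 RPKM) stood above SKIL (8.86) in Control, and in ADP-CM SMAD3 (33.1) stood level with INHBB (33.0).

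**Figure D3:**
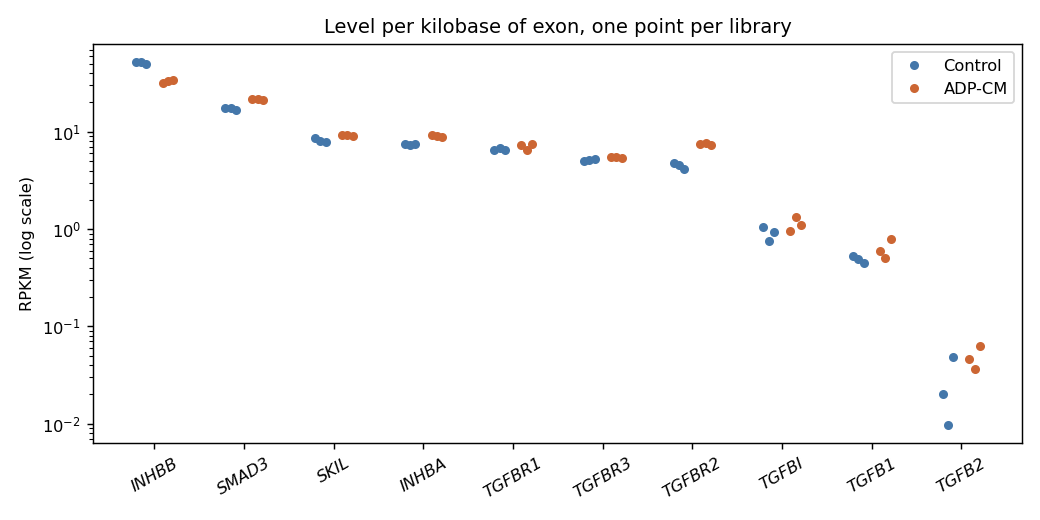
RPKM on a logarithmic vertical axis for the 10 genes, ordered by their mean in Control, with one point per library. INHBB leads in both groups, TGFBR2 rises from 4.50 in Control to 7.46 in ADP-CM beside TGFBR1, and TGFB2 lies below 0.1 in every library.

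The rest of the pathway was read from lists of 83 further genes, of which 68 were tested. Of these, 25 were raised and 13 lowered by the same edgeR limit, against 13.5% and 13.0% of all tested genes, and their median log2 fold change was 0.06. The lists were chosen with earlier results of these data known, so an excess over these shares is no independent evidence. A fold change over 1.5 was also passed by 5 raised and 3 lowered genes, where all tested genes gave 1.14% in each direction.

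Of 12 other ligands, 4 were tested. GDF11, a ligand of the activin type II receptors, rose from 14.4 ± 0.680 to 21.4 ± 0.227 CPM (SD of n = 3 per group), or 0.57 on the log2 scale. GDF15, a stress-induced distant member of the family, fell from 150 ± 1.95 to 128 ± 3.28 CPM (SD of n = 3 per group). TGFB3, at 3.39 ± 0.180 and 3.98 ± 0.648 CPM, and INHA, the inhibin alpha subunit, at 1.25 ± 0.0980 and 1.40 ± 0.333 CPM (SD of n = 3 per group), did not pass the test. NODAL, GDF3 and LEFTY2 had no read in any library. GDF1 was also listed at 0, but exons of CERS1 on the same strand cover 100% of its exonic bases, so that its reads could be left out as ambiguous and its 0 says nothing of its level.

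Of 10 other receptors and coreceptors, 8 were tested, with 1 raised and 1 lowered, near the 13.5% and 13.0% of all tested genes. ACVR2B, an activin type II receptor, had a log2 fold change of 0.41 and an adjusted p-value of 0.00393 (edgeR), a call that was lost with DESeq2, where the adjusted p-value was 0.0371, and without any of Control replicates 1 and 2 and ADP-CM replicates 1 and 2, where it ran from 0.01 to 0.0666 (edgeR). BAMBI, a decoy receptor that lacks a kinase, fell from 33.9 ± 0.559 to 26.4 ± 2.29 CPM (SD of n = 3 per group), or -0.36 on the log2 scale. The activin type I receptor ACVR1B and the type II receptor ACVR2A did not pass the test, with log2 fold changes of 0.13 and 0.06.

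Of 12 tested genes that store, activate or trap the ligands, 6 were raised and 1 lowered, against 13.5% and 13.0% of all tested genes. ITGB6, the beta subunit of an integrin that frees TGF-beta from its latent complex, rose from 9.38 ± 0.119 to 22.4 ± 0.615 CPM (SD of n = 3 per group). Its log2 fold change of 1.26 was at rank 17 of 12663 from the largest rise. In GENCODE, exons of another gene cover 16.7% of the exonic bases of ITGB6 on the same strand. ITGB8, the beta subunit of another integrin that activates TGF-beta, fell from 126 ± 0.752 to 106 ± 2.31 CPM (SD of n = 3 per group). LTBP1 and LTBP2, from the family of latent TGF-beta binding proteins, each had a log2 fold change of 0.48, while LTBP3 and LTBP4 did not pass the test. FURIN, which cleaves ligand precursors, had a log2 fold change of 0.30. FST, which encodes the activin trap follistatin and is named here after its values were seen, rose from 10.6 ± 0.906 to 15.8 ± 0.730 CPM (SD of n = 3 per group), or 0.58 on the log2 scale, and the related FSTL3 did not pass the test.

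Of the 18 genes of the SMAD machinery, all tested, 6 were raised and 1 lowered, against 13.5% and 13.0% of all tested genes. PMEPA1, a TGF-beta-induced inhibitor of SMAD phosphorylation, rose from 56.3 ± 1.26 to 97.9 ± 2.96 CPM (SD of n = 3 per group), which is 0.80 on the log2 scale (SE 0.038). The other changes were small. The ubiquitin ligases NEDD4L, SMURF2 and SMURF1 had log2 fold changes of 0.16, 0.14 and 0.17, and FKBP1A, which binds the type I receptor, 0.12. The call of SMURF1 was lost with DESeq2 and without Control replicate 1 or 3, with adjusted p-values of 0.0235 (DESeq2), 0.0235 and 0.0106 (edgeR). The raised gene ZFYVE9 (named after its values were seen) lost its call with DESeq2 and without Control replicate 2 or ADP-CM replicate 1. Its adjusted p-values there were 0.0268 (DESeq2), 0.0321 and 0.0119 (edgeR). The 1 lowered gene, the corepressor gene TGIF1 (named after its values were seen), had a log2 fold change of -0.10, and its call was lost with DESeq2 and without Control replicate 1 or 2 or ADP-CM replicate 1 or 2, at adjusted p-values of 0.0257 (DESeq2) and 0.0142 to 0.0514 (edgeR). SMAD7, the inhibitory SMAD that the pathway induces, went from 12.6 ± 1.12 to 10.6 ± 0.995 CPM (SD of n = 3 per group), or -0.25 on the log2 scale (adjusted p = 0.0231 by edgeR), and did not pass the test.

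Genes that TGF-beta is known to induce went both ways, with 13 of 27 tested raised and 6 lowered and a median log2 fold change of 0.06. All tested genes gave 13.5% raised and 13.0% lowered. The raised genes BHLHE40 and SPHK1 (named after their values were seen) lost their calls with DESeq2, at adjusted p-values of 0.0209 and 0.0374. Without some single libraries these calls were also lost, at 0.0209 to 0.0285 and 0.0181 to 0.103 by edgeR. TGM2, a transglutaminase that crosslinks matrix, rose from 20.9 ± 0.326 to 54.7 ± 2.00 CPM (SD of n = 3 per group), which is 1.39 on the log2 scale (SE 0.054). PMEPA1 and ITGB6 are on this list as well. TAGLN, an actin-binding protein of contractile cells, fell from 24.3 ± 1.10 to 13.9 ± 1.10 CPM (SD of n = 3 per group), or -0.81 on the log2 scale. In GENCODE, exons of another gene cover 38.1% of the exonic bases of TAGLN on the same strand, and exons of PCSK7 lie opposite 34.1%. The part of these overlaps in its count was not tested. CTGF, a classical target, stood at 34.4 ± 1.21 and 33.6 ± 0.809 CPM and CDKN2B at 13.5 ± 1.17 and 13.7 ± 0.462 CPM (SD of n = 3 per group), and neither passed the test. Among genes that TGF-beta is known to repress in epithelial cells, ID1, ID2 and ID3 fell, with log2 fold changes of -0.71, -1.39 and -0.56, and MYC rose, with 0.32. The ID genes are also targets of BMP signaling. In the list of BMP ligands, receptors and SMADs, 2 of 11 tested genes were raised and 2 lowered, where 13.5% and 13.0% of all tested genes were. SMAD6, the inhibitory SMAD of the BMP arm, fell from 40.4 ± 0.833 to 22.4 ± 0.802 CPM (SD of n = 3 per group), and the ligand gene BMP2 fell by 0.45 on the log2 scale. SMAD5, a receptor-regulated SMAD of that arm, rose by 0.23, and the type II receptor gene BMPR2 by 0.13 on the same scale. The call of BMPR2 was lost, leaving 1 raised gene, with DESeq2 at an adjusted p of 0.0498 and without any of the Control replicates or ADP-CM replicates 1 and 2, at 0.0133 to 0.0432 by edgeR.

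**Figure D4:**
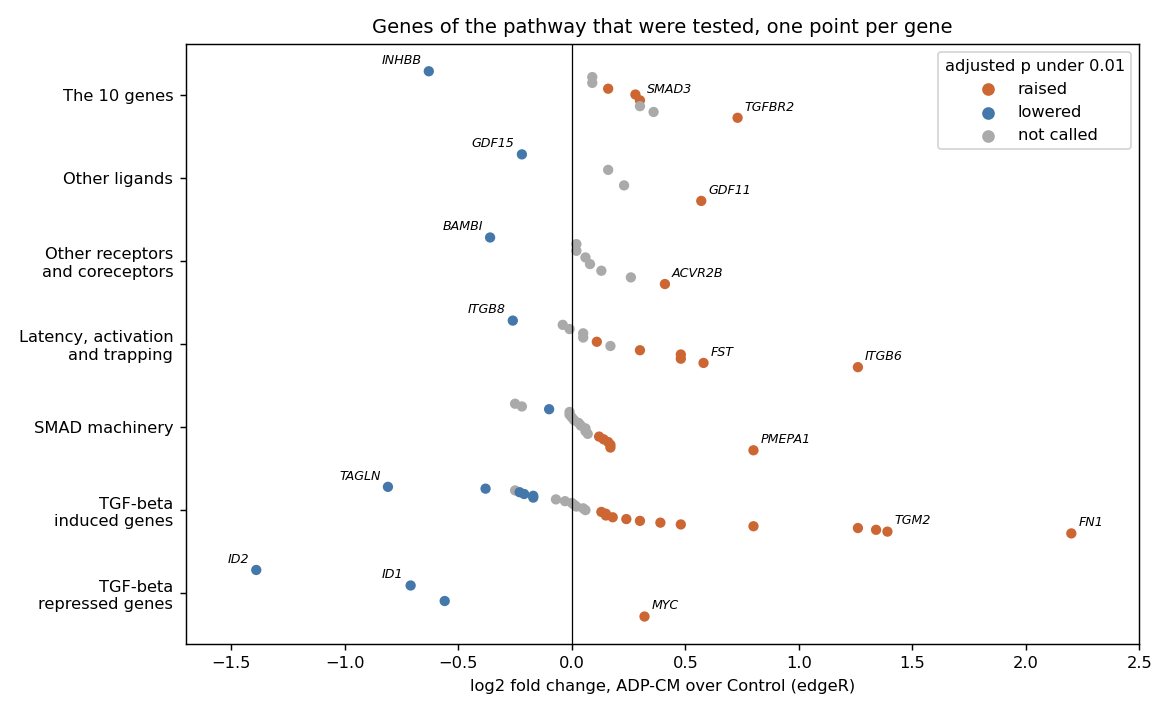
Log2 fold change of ADP-CM over Control from edgeR (horizontal axis) for each tested gene of the pathway, in rows by list, with genes raised or lowered past an adjusted p of 0.01 in colour and the rest in grey. Genes on several lists appear in each of them. INHBB and TGFBR2 are the outermost of the 10 genes at -0.63 and 0.73, and the induced genes spread from -0.81 for TAGLN to 2.20 for FN1, a gene named after its values were seen.

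INHBB had the smallest p-value of the 10 genes, and the genes whose log2 CPM followed it most closely over the 6 libraries, out of 12136 others with a mean of at least 1 CPM, were ID4, CD82, BDKRB1, FZD1 and IGFBP2. Pearson's r lay between 0.9981 and 0.9989. The points share the contrast of the groups, so any gene with a steady fall would score highly. Their log2 fold changes were -1.06 for ID4, -0.49 for CD82, -0.48 for BDKRB1, -0.28 for FZD1 and -0.55 for IGFBP2.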

How the data were processed

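Total RNA was converted to stranded poly(A) libraries and read singly over 50 bp. With TopHat2 the authors mapped these to hg19, and the raw counts they deposited are HTSeq reads per RefSeq gene for each library. Program versions and the strand setting are not given in the sources used here. HTSeq leaves out reads that align to several places, so close paralogs are undercounted. The summary lines that name no gene (no gene 10.2% to 11.6%, ambiguous 0.709% to 0.721% and not uniquely aligned 20.5% to 20.8% of reads) entered neither library sizes nor tests.

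Groups and replicate numbers came from the labels. Replicates within a group differed beyond counting noise in each pair. With edgeR 4.0.16 in R 4.3.3, genes were kept by filterByExpr (12663 of 23228), normalized by TMM and tested by quasi-likelihood, with p-values adjusted by Benjamini-Hochberg and a limit of 0.01. The common biological coefficient of variation was 1.67%. Standard errors are the log2 fold change divided by the square root of the quasi-likelihood F, and 95% intervals are 1.96 standard errors either side. RPKM used the union of all annotated exons in GENCODE release 44 on GRCh37. The test was tried on simulated counts of 12595 genes, where edgeR recovered 46 of 50 genes changed 1.5-fold and 38 of 50 changed 1.3-fold, with 1 false call in all. The simulation gave every gene the same dispersion and changed far fewer genes than were called here. Its rates need not hold for these data. Alternatives were DESeq2 1.42.0, DESeq2 size factors, plain library sizes, other filters and limits, a replicate block and leaving out each library. From each pathway list the called genes with the smallest p-values, at most 5, are named, except a gene that is not reported here. The genes and lists were chosen with earlier results of these data known.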

Additional observations from a re-analysis of the deposited data

How the results depend on the processing

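All calls of the 10 genes kept their direction and their side of the limit over the alternatives, except SKIL without Control replicate 3. With a fold change over 1.5 as well, 1 of the 10 genes was raised and 1 lowered, and 5 other pathway genes were raised and 3 lowered, since most changes were smaller than that limit. Leaving out each library in turn gave 3 to 4 raised and 1 lowered of the 10 genes, and 21 to 26 raised and 12 to 13 lowered other pathway genes. With an adjusted p limit of 0.05, 5 of the 9 tested genes were raised, TGFBI being the additional one. The shares of all tested genes at that limit and without each library were not worked out. These counts therefore show only how stable the calls were. Any pairing of the libraries by replicate number was weak, with correlations of 0.0726, 0.0141 and 0.0973 between same-numbered libraries in their deviations from the group means. Libraries of different numbers gave -0.0928 to 0.0261. Each library did correlate best with the one of its own number, except ADP-CM replicate 2. With the replicate block, 4 of the 10 genes were raised and 1 lowered, and 25 and 13 other pathway genes, the same counts as without it. For the other listed genes, 909 of 944 pairs of gene and alternative kept the call, 31 lost it, 4 gained it and 0 turned in direction. Depth limited TGFB2 and TGFB1, which had at most 7 and 47 reads in any library.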
